A study of Homo sapiens with 2 samples.

Results

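The anaphase-promoting complex or cyclosome (APC/C) is the ubiquitin ligase that ends mitosis, and transcript levels of 10 genes around it were read from 2 libraries of a bladder carcinoma line. The genes were chosen by name: the co-activators CDC20 and FZR1, the inhibitor FBXO5, the E2 enzymes UBE2C and UBE2S, the core subunit CDC27, the protease ESPL1 with its inhibitor PTTG1, and the substrates CDCA3 and GMNN. All 10 were chosen with earlier results of these data known. Each was found by its Entrez identifier, and all 10 were present in both tables, among 19052 genes in either. The line was TSU-Pr1, named K12 in the treatment label and described in the series title as stably expressing the transcription factor KLF5, so both groups carry that expression. One group was transfected with a control siRNA (siCtrl) and the other with siCINP, directed against CINP, the gene of a CDK2-binding protein. Both were grown with 8% serum, and RNA was taken 48 h after transfection. Each group was a single library (1 siCtrl, 1 siCINP), so no difference below has a replicate check, no p-value is given, and every interval covers counting error only. Neither the siRNA sequences nor how many siRNAs were used is stated in the sources used here.

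The APC/C marks proteins with ubiquitin so that the proteasome degrades them. CDC20 directs it in early mitosis to securin (PTTG1) and cyclin B, which frees separase (ESPL1) to cut cohesin and lets sister chromatids part. FZR1, also called CDH1, takes over at mitotic exit and keeps the complex active through G1, until FBXO5 (EMI1) blocks it. UBE2C starts ubiquitin chains and UBE2S extends them. Most of these genes are transcribed in step with the cell cycle, many from promoters that carry a cell cycle genes homology region (CHR), to which the DREAM and MuvB complexes bind.

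Expected counts summed to 10365307 in siCtrl, where 17847 genes were listed, and to 10314204 in siCINP, where 18115 were. The targeted gene CINP went from 203 reads in the siCtrl library to 53 in the siCINP library, 4.02-fold lower on scaled reads, and KLF5 had 4013 and 4077 reads. Of the epithelial markers, KRT8 and KRT18 had FPKM values between 1552 and 1942, while KRT7, KRT19, EPCAM and CDH1 lay between 0.22 and 16.5. The low-level markers were higher in siCINP: KRT7 had 154 and 297 reads (log2 ratio 0.88), KRT19 20 and 44 (1.07), CDH1 46 and 75 (0.64), all 3 past the 1.5-fold rule given below and with fractional counts, and EPCAM 4 and 15. Their part in the ratios of the 10 genes was not tested. The urothelial markers UPK1A, UPK1B, UPK2, UPK3A, GATA3 and PPARG were at 1.59 FPKM or less in both libraries, with UPK2 not listed, so defining markers of differentiated urothelium were at or near 0. Among prostate markers, KLK3, KLK2 and TMPRSS2 were not listed. The summed FPKM of 6 leukocyte markers was 6.62 in siCtrl and 7.71 in siCINP, with most of it from CD68, that of 6 endothelial markers 0.97 and 1.48, and that of 6 fibroblast markers 2.67 and 3.1.

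Promoter sequence is shown first for 6 of the genes, chosen after their values were seen: the 2 with the lowest ratios (ESPL1 and CDCA3), the 1 whose ratio had an interval above 0 (GMNN), and CDC20, FBXO5 and PTTG1 for contrast. Each line runs 5′ to 3′ from 110 bases before to 10 bases after the RefSeq start, on build GRCh38.p14. Capitals mark the CHR letters TTTGAA, the CCAAT box and the E2F letters TTTGGCGC, TTTCGCGC, TTTCCCGC or TTTGCCGC, on either strand.
ESPL1 promoter, chr12:53268189-53268308, plus strand: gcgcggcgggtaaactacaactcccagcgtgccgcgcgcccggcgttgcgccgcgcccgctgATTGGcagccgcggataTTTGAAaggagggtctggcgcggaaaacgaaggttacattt
CDCA3 promoter, chr12:6851277-6851396, minus strand: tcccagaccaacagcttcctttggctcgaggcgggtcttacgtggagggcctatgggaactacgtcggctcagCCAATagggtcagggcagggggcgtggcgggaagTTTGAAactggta
CDC20 promoter, chr1:43358871-43358990, plus strand: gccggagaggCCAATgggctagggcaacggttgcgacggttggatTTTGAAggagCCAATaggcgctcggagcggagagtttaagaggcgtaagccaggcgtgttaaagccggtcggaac
FBXO5 promoter, second listed start, chr6:152983032-152983151, minus strand: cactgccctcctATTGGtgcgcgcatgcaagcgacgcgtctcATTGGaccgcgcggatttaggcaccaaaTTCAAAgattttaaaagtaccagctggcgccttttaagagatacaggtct
PTTG1 promoter, first listed start, chr5:160421745-160421864, plus strand: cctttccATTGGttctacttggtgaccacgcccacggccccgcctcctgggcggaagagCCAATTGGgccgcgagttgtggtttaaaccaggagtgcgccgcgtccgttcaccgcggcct
GMNN promoter, second listed start, chr6:24775303-24775422, plus strand: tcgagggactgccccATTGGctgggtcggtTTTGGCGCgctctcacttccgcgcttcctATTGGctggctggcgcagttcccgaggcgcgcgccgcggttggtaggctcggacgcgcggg

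Within the full RefSeq windows, from 250 bases before to 50 after a start, 9 of the 10 genes matched with 13 windows (all but UBE2C). TTTGAA was found on either strand in 5 of the 13 windows, those of CDC20, FZR1, FBXO5, ESPL1 and CDCA3, in 15.2% of all 35116 windows and in 10.4% of the 14950 windows of compared genes. The match began 65 bases before the start in CDC20, 31 in ESPL1, 3 in CDCA3 and, on the other strand, 40 in FBXO5, whereas the FZR1 match lay 226 bases away, and CDC20 had a further reverse match 178 bases away. CCAAT was found in 9 of the 13 windows, covering 8 of the 9 genes, in 34.6% of all windows and in 35.2% of those of compared genes. In PTTG1 its forward and reverse matches overlapped in CCAATTGG. GMNN, which encodes the replication licensing inhibitor geminin, was the only gene of the 9 with an E2F match, 80 bases before its second start, against 3.31% of all windows and 5.06% of those of compared genes. These letters are descriptions of the sequence and were not tested as binding sites.

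The levels fell into 2 tiers. FPKM, the deposited level per length and per library total, was 244 for CDC20, 240.0 for UBE2S, 187 for UBE2C and 166 for PTTG1 in siCtrl, and these 4 genes made up 82.0% of the summed FPKM of the 10. The others lay between 19.2 FPKM for ESPL1 and 43.4 for CDC27. In siCtrl, CDC20 had a higher FPKM than 98.8% of listed genes and ESPL1 than 77.0%, with the other 8 genes between.

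The order of levels in siCtrl was CDC20, UBE2S, UBE2C, PTTG1, CDC27, GMNN, CDCA3, FZR1, FBXO5 and ESPL1. Counting intervals overlapped between CDC20 and UBE2S, between CDC27 and GMNN, between CDCA3 and FZR1 and between FZR1 and FBXO5. Such overlap does not settle the order of neighbours, and no interval of their difference was computed. In siCINP the upper tier kept its order and made up 80.9% of the summed level, with overlap of CDC20 with UBE2S and of UBE2S with UBE2C. Below it, GMNN at 48.6 FPKM stood above CDC27 at 37.9, and CDCA3 at 19.0 FPKM stood below FBXO5 at 26.8 and FZR1 at 22.3, with overlapping intervals only for FZR1 and CDCA3. The highest level was 12.7 times the lowest in siCtrl and 15.8 times in siCINP.

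**Figure D1:**
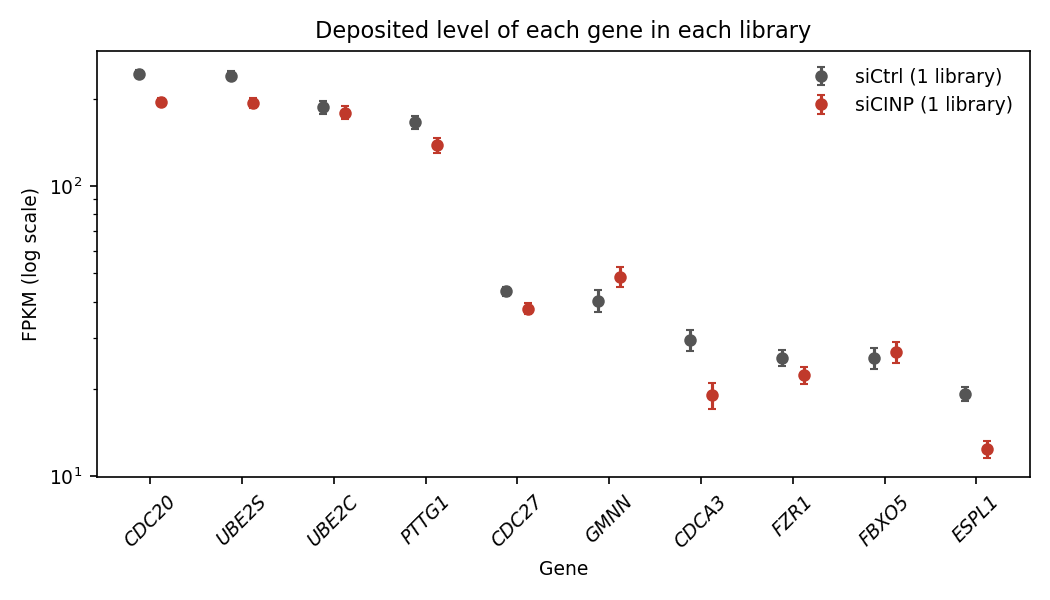
Deposited FPKM (log scale) of the 10 genes in the siCtrl library (grey) and the siCINP library (red), in the order of the siCtrl level; bars are 95% Poisson intervals of the reads. CDC20, UBE2S, UBE2C and PTTG1 form an upper tier in both libraries, and the red point is the lower one for 8 of the 10 genes.

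Comparing siCINP with siCtrl asks which of these transcripts differ when CINP is depleted. Reads were scaled between libraries by the TMM method, and a ratio of scaled reads was called past the size rule when it was at least 1.5-fold with a 95% interval that excluded 0 on the log2 scale. By this rule 2 of the 10 genes, ESPL1 and CDCA3, were lower in siCINP, where 4.88% of the 13076 genes with 20 or more reads in a library were, and 0 were higher, where 5.06% were. Of the 4897 genes in the 10 genes' range of mean reads (471.5 to 3832), 4.45% were lower by the same rule. No gene of the 10 was 2-fold lower or higher, which 1.41% and 1.69% of compared genes were. Intervals lay below 0 for 8 of the 10 genes, compared with 23.1% of all compared genes and 35.3% of those in that range of reads. For 1 gene, GMNN, the interval lay above 0, as for 18.6% of compared genes and 23.4% of those in that range. The median log2 ratio of the 10 was -0.30, that of all compared genes -0.01 and that of genes in the same range of reads -0.04. Because the 10 were chosen with earlier results of these data known, their contrast with other genes is a description only. A total-count scaling gave 858 higher and 484 lower genes in place of 662 and 638, and moved the median of all compared genes by 0.08. In a bulk library, fewer cells at the stage of the cycle that makes these transcripts and less transcript in each cell cannot be told apart.

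**Figure D2:**
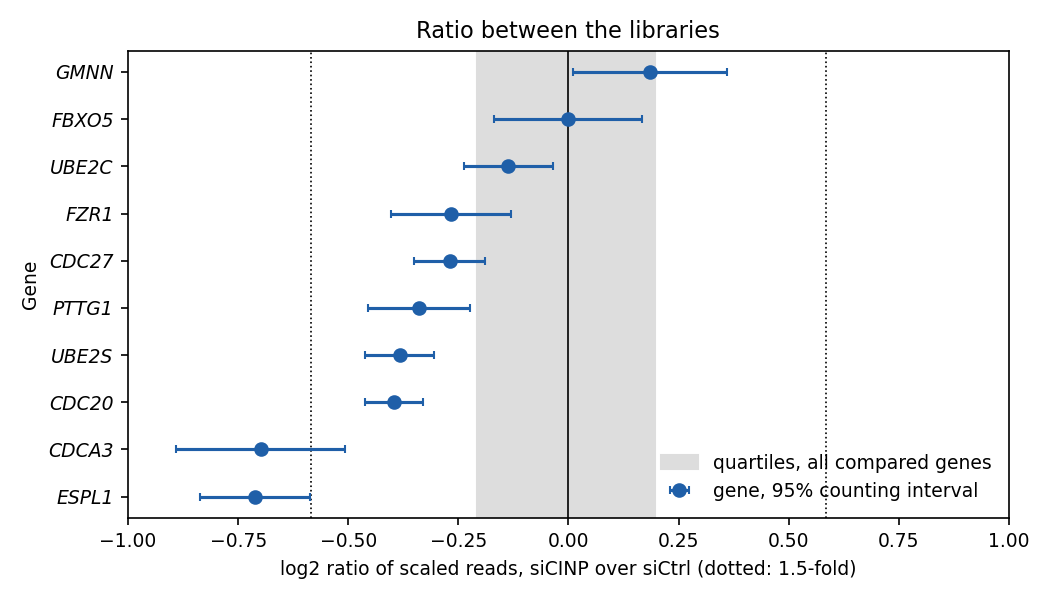
Log2 ratio of TMM-scaled reads, siCINP over siCtrl, for each gene with its 95% counting interval; the grey band spans the quartiles of all compared genes (-0.21 to 0.20) and dotted lines mark 1.5-fold. ESPL1 and CDCA3 lie beyond the 1.5-fold line, 5 further genes lie below the grey band, and UBE2C, FBXO5 and GMNN lie inside it.

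CDC20, the mitotic co-activator and the target of the spindle assembly checkpoint, was counted at 4265 reads in siCtrl (244 FPKM) and 3399 in siCINP (195 FPKM). The siCINP library was the lower one, by 1.32-fold on scaled reads (log2 ratio -0.40, 95% interval -0.46 to -0.33). FZR1, the co-activator of mitotic exit and G1, had 958 and 835 reads and FPKM values of 25.6 and 22.3. Its siCINP value was also the lower, with a log2 ratio of -0.27 (-0.40 to -0.13), and MFSD12, which overlaps FZR1 on the other strand, had 460 and 395 reads (-0.29). FBXO5, the inhibitor that occupies the substrate site of the APC/C in S and G2 phase, had 566 and 593 reads and FPKM values of 25.5 and 26.8. On scaled reads the libraries were level (log2 ratio -0.00093, interval -0.17 to 0.17), and any difference was below what this depth could show.

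UBE2C, the E2 that places the first ubiquitin on APC/C substrates, was counted at 1631 reads (187 FPKM) in siCtrl and 1555 reads (179 FPKM) in siCINP. The libraries lay close together, with a log2 ratio of -0.14 (-0.24 to -0.04). UBE2S, which elongates chains through lysine residues of ubiquitin, had 2960 and 2380 reads and 240.0 and 194 FPKM. It was 1.30-fold lower in siCINP (log2 ratio -0.38, -0.46 to -0.30). RPL28, a ribosomal protein gene that overlaps UBE2S on the other strand in GENCODE, had 6310 and 5522 reads, and reads of the overlap cannot be assigned to a strand, since the sources used here state no strand setting.

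Among 33 listed E2 enzymes, UBE2S and UBE2C had the 2nd and 3rd highest FPKM in both libraries. Above them stood UBE2V1, an E2-like partner of UBE2N, at 258 and 235 FPKM with fractional counts. The median of the 33 was 36.9 FPKM in siCtrl and 40.7 in siCINP. By log2 ratio UBE2S was the 7th lowest and UBE2C the 20th lowest of the 33. Without these 2, the other 31 E2 genes had a median log2 ratio of -0.20, with 16 intervals below 0 and 3 above. Past the 1.5-fold rule were 3 lower genes and 0 higher: UBE2Z, an E2 that works with the activating enzyme UBA6 (2194 and 1324 reads, log2 ratio -0.80), UBE2E2 (203 and 113 reads, -0.91) and UBE2F, an E2 for the ubiquitin-like protein NEDD8 (189 and 110 reads, -0.85, fractional counts). UBE2D3, an E2 with a broad range of ligases, had a log2 ratio of -0.39 with fractional counts.

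ESPL1, separase, the protease that cleaves the cohesin subunit RAD21 at anaphase, was counted at 1339 and 857 reads in siCtrl and siCINP. Its FPKM was 19.2 in siCtrl and 12.4 in siCINP. The siCINP library was 1.64-fold lower, with a log2 ratio of -0.71 (-0.84 to -0.59), and 3.66% of compared genes had a lower ratio. PTTG1, securin, the chaperone and inhibitor of separase, had 1330 and 1102 reads and 166 and 138 FPKM. It was 1.27-fold lower in siCINP (log2 ratio -0.34, -0.46 to -0.22), a smaller difference than that of ESPL1. Of 10 named copies and paralogues of the 10 genes, 9 were not listed in either table and CDC20B had 0 and 1 reads.

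CDCA3, an F-box-like protein also called Tome-1 that is itself degraded by the FZR1 form of the APC/C, was counted at 573 and 370 reads in siCtrl and siCINP. The corresponding FPKM values were 29.4 and 19.0. The siCINP library was 1.62-fold lower (log2 ratio -0.70, -0.89 to -0.51), and 3.85% of compared genes had a lower ratio. GNB3, which overlaps CDCA3 on the other strand, had 22 and 11 reads, few against those of CDCA3. GMNN, geminin, which holds back re-licensing of origins by binding CDT1, had 497 and 592 reads and 40.2 and 48.6 FPKM. Here siCINP was the higher library, by 1.14-fold (log2 ratio 0.18, 0.01 to 0.36), and 73.8% of compared genes had a lower ratio.

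CDC27, a tetratricopeptide-repeat subunit that docks the co-activators, was counted at 2645 reads (43.4 FPKM) in siCtrl and 2300 reads (37.9 FPKM) in siCINP. It was 1.21-fold lower in siCINP (log2 ratio -0.27, -0.35 to -0.19). The other 13 core subunits were split about 0, with a median log2 ratio of -0.01, 3 intervals below 0, 3 above and 0 past the 1.5-fold rule in either direction. ANAPC2, the cullin of the complex, had 310 and 228 reads (log2 ratio -0.51, -0.76 to -0.26), and ANAPC11, its RING partner that binds the E2, had 245 and 187 (-0.46, -0.74 to -0.18). CDC26, a small stabilising subunit, had 155 and 228 reads (0.49, 0.19 to 0.79), and ANAPC4, a platform subunit, had 269 and 375 (0.41, 0.18 to 0.64). The third core subunit with an interval below 0 was CDC16, a tetratricopeptide-repeat subunit (768 and 723 reads, -0.16, -0.30 to -0.01), and the third above 0 was ANAPC7, another one (700 and 848 reads, 0.21, 0.06 to 0.36). Both were named after their values were seen, and all 6 had whole expected counts.

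**Figure D3:**
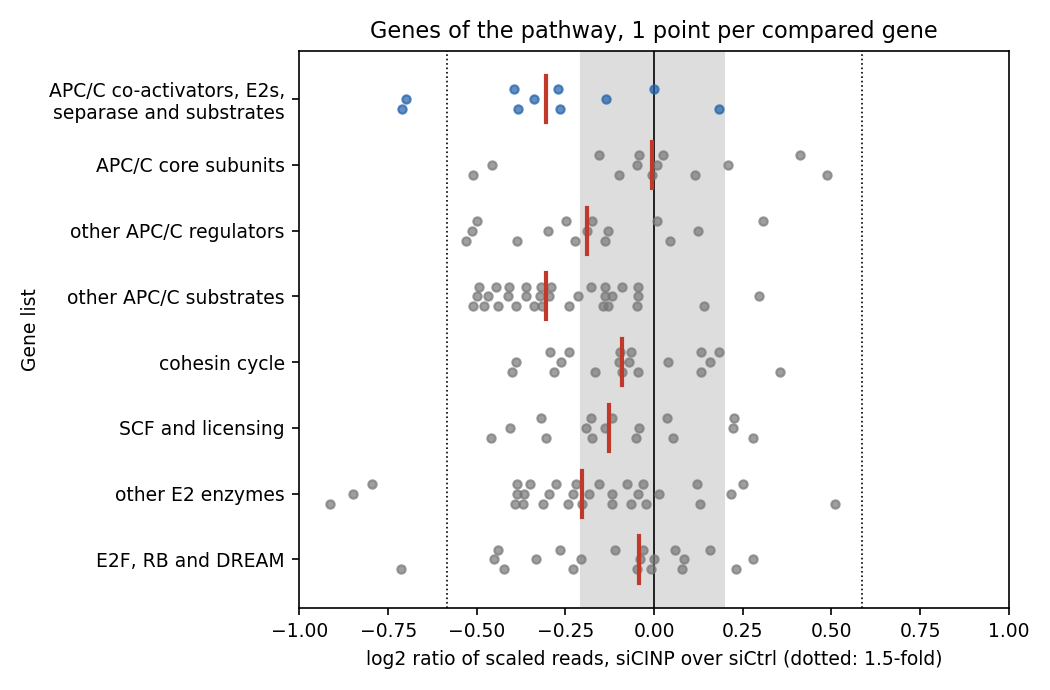
Log2 ratio of TMM-scaled reads, siCINP over siCtrl, with 1 point per compared gene in 8 lists; the 10 genes are in blue, other lists leave them out, red lines are list medians, the grey band spans the quartiles of all compared genes and dotted lines mark 1.5-fold. Core subunits have a median of -0.01, while other APC/C substrates have one of -0.31, near that of the 10 genes.

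Ratios between partners within a library do not depend on the scaling between libraries, and 5 pairs were compared. The FPKM of CDC20 was 9.54 times that of FZR1 in siCtrl and 8.75 times in siCINP. This change in the balance of the 2 co-activators, -0.13 on the log2 scale from the reads, had an interval that held 0 (-0.28 to 0.02). PTTG1 stood at 8.62 times ESPL1 in siCtrl and 11.2 times in siCINP, a change of 0.37 (0.20 to 0.54). Both genes were lower in siCINP, ESPL1 by more. FBXO5 stood at 0.997 times FZR1 in siCtrl and 1.20 times in siCINP, a change of 0.27 (0.05 to 0.48). On scaled reads FZR1 was lower in siCINP and FBXO5 was level. All 5 are ratios of transcripts, and no protein was measured. UBE2C stood at 0.778 times UBE2S and then at 0.925 times, a change of 0.25 (0.12 to 0.37). GMNN stood at 1.17 times CDT1, its binding partner, and then at 1.38 times, with a change of 0.23 (0.01 to 0.44). CDT1 itself had 983 and 1001 reads, with fractional counts. In 4 of the 5 pairs the interval excluded 0. No share over pairs of other genes was computed, so this count cannot be called particular to these pairs. Among single genes in the same range of reads, a different measure, 35.3% had intervals below 0 and 23.4% above.

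**Figure D4:**
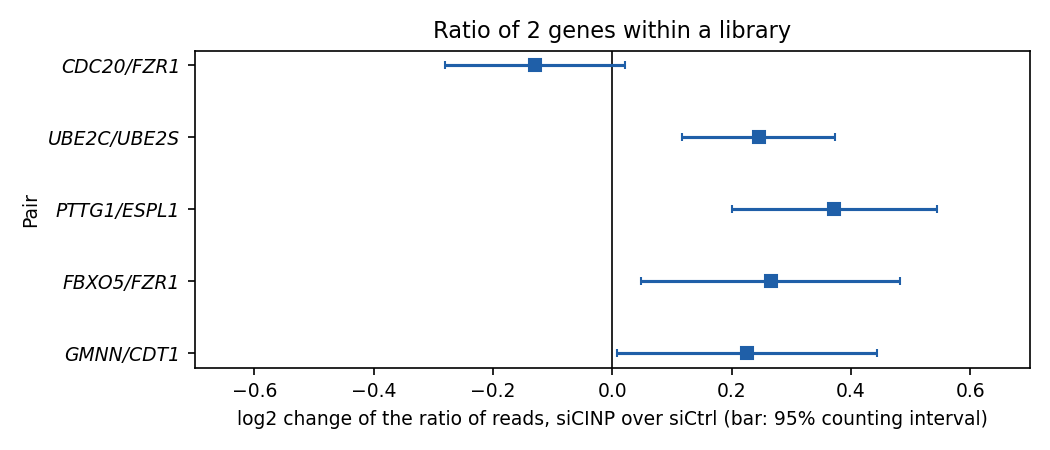
Change in the ratio of reads of 2 genes within a library, siCINP over siCtrl on the log2 scale, for 5 pairs; bars are exact conditional 95% intervals of counting error. PTTG1 over ESPL1 has the largest change of the 5 (0.37), and only the bar of CDC20 over FZR1 crosses 0.

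The 32 other APC/C substrates had a median log2 ratio of -0.31, with 25 intervals below 0 and 2 above, and 0 past the 1.5-fold rule in either direction. AURKA, a spindle pole kinase, had 2806 and 2066 reads (log2 ratio -0.51, fractional counts). PLK1, the kinase that primes FBXO5 for degradation, had 3520 and 2619 reads (-0.49). ANLN, the contractile ring protein anillin, and CCNA2, cyclin A2, were at -0.48 and -0.50. The 2 substrates with intervals above 0 were CDC25A, a phosphatase of the G1/S transition (330 and 425 reads, 0.30), and CLSPN, the checkpoint mediator claspin (1510 and 1744 reads, 0.14, fractional counts). ESPL1 and CDCA3, the 2 lowest of the 10 genes, had lower ratios than each of these 32 genes, whose lowest was -0.51. Both intervals overlapped that of AURKA, the lowest of the 32 (-0.59 to -0.43). Overlap of single-gene intervals does not settle an order, and no interval of the difference was computed. With 1 library per group the difference has no test. The 12 of 16 proliferation markers with intervals below 0 included AURKA, PLK1, CCNA2 and the helicase subunit MCM5 (-0.41). The 2 with intervals above 0 were CCNE1, cyclin E1 (0.40), and MCM3, another helicase subunit (0.25). AURKA, PLK1 and CCNA2 are also among the 32 substrates, so the lists share genes. The summed FPKM of the 16 was 1312 in siCtrl and 1165 in siCINP, and the part of proliferation in the ratios of the 10 genes was not tested.

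The other APC/C regulators were lower more often than higher, with 8 intervals below 0 and 1 above among 15 compared genes of 16, a median of -0.19 and 0 past the 1.5-fold rule. TRIP13, an ATPase that disassembles the mitotic checkpoint complex, was at -0.53 with fractional counts. BUB3, a checkpoint protein that binds CDC20 in that complex, was at -0.30. USP37, a deubiquitinase that opposes the APC/C, was at 0.31 with fractional counts. Cohesin cycle genes, on which separase acts, had a median of -0.09 over 19 genes, with 7 intervals below 0, 3 above and 0 past the 1.5-fold rule. Of these, RAD21, the separase substrate, had 3123 and 2694 reads (-0.28), STAG2, a cohesin subunit, was at -0.39, and SGO2, a protector of centromeric cohesin, at -0.40 with fractional counts. The 3 with intervals above 0 were PDS5B, a cohesin regulator (0.36), SMC1A, a cohesin subunit (3192 and 3668 reads, 0.13), and WAPL, another regulator (0.13).

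The SCF and licensing list had a median of -0.13 over 16 genes, with 7 intervals below 0, 3 above and 0 past the 1.5-fold rule. SKP1, the SCF adaptor that binds F-box proteins, was at -0.46 with fractional counts. BTRC, the F-box protein that targets FBXO5, was at -0.41. CDC6, a licensing factor that is also an APC/C substrate, was at -0.32 with fractional counts, and WEE1, the CDK1 kinase whose turnover CDCA3 is reported to promote, at -0.30. E2F, RB and DREAM genes had a median of -0.04 over 20 genes, with 6 intervals below 0 and 2 above. One passed the 1.5-fold rule: LIN52, a subunit shared by DREAM and the MuvB complexes, with 230 and 147 reads (-0.71, fractional counts). FOXM1, an activator of G2/M genes, was at -0.44 with fractional counts, E2F7, a repressor, at -0.45, and E2F2, an activator, at -0.42 with fractional counts.

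All 10 genes had whole expected counts in both libraries. The heptamers TGCAAGA and GCAAGAA, singled out in these data after the values were seen, occurred in the annotated 3′ UTR of 2 of the 10 genes and of 18.4% of 11320 compared genes with an annotated 3′ UTR. These are shown because they are the only such matches in the 10 genes, with the matching letters in capitals, from GENCODE 29 transcripts.
UBE2C site: gaagtaccTGCAAGAAacctactc
CDC27 site: tattcttgGCAAGAAtgctttaa
UBE2C and CDC27 had log2 ratios of -0.14 and -0.27. Over all compared genes with an annotated 3′ UTR, the median log2 ratio was -0.11 for carriers of either heptamer and 0.00081 for the others. A second pair singled out in the same way, TCGGAGA and CGGAGAA, occurred in 0 of the 10 genes and in 4.22% of compared genes, whose median was 0.08 against -0.02 for the others. Because both pairs were singled out in these data, the differences between carriers and others can follow from that choice and are no support. UTR length was not taken into account. The part of these heptamers in the ratios of UBE2C and CDC27 was not tested.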

How the data were processed

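Each library came with 1 table of genes, listing for each an FPKM value, an expected count and a length. The expected counts are the authors' estimates of reads per gene and carry no normalisation, per the file headers. FPKM values were computed by the authors per gene length and library total, as their header states. Bowtie2, HISAT and hg19 are named in the submitters' processing notes; no counting tool or strandedness is given in the sources used here. Gene names came from RefSeq on GRCh38.p14 (18971 of 19052 identifiers matched), and coordinates are printed only for the RefSeq promoter windows, on that build; 3′ UTRs are from GENCODE 29.

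Expected counts were rounded and scaled by TMM in edgeR 4.0.16 under R 4.3.3 (factors 0.974 in siCtrl, 1.03 in siCINP). Ratios are siCINP over siCtrl with Clopper-Pearson 95% intervals on the split of reads, from scipy 1.17.1. Zero counts were set to 3 reads, and genes with 20 or more reads in a library were compared. Counts within 0.005 of a whole number were taken as whole and others as fractional, which may mean reads shared between genes. Beyond the genes named as fractional above, KRT8, KRT18 and CD68 also had fractional counts. PCR copies are not independent molecules, so intervals cover counting error only. Pair intervals are exact conditional odds ratio intervals. The method was tested on simulated data that held counting error alone, with no spread between cultures. Such a test cannot show how the intervals hold against that spread.

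The members and lists were chosen with earlier results of these data known. Named genes are the 10, CINP, KLF5, CDT1, overlapping genes, cell type markers and up to 4 others per list, ranked by how far the nearer end of the interval was from 0. CDC25A, CLSPN, CCNE1, MCM3, SMC1A and WAPL were named after their values were seen. Alternatives were scaling by DESeq2 1.42.0, upper quartile or total count, FPKM with pseudocounts of 0.1 and 1, a thinned deeper library, other read minimums, whole counts only and other size rules.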

Additional observations from a re-analysis of the deposited data

How the results depend on the processing

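Of 90 alternative log2 ratios of the 10 genes, 9 for each, 87 lay within the counting interval reported above and 3 beyond it. Those 3 were all of CDC20 at -0.32 (total-count scaling and both FPKM settings), and 0 reversed a direction whose interval excluded 0. The other read minimums and the restriction to whole counts only select genes. All 10 genes passed them, so their ratios there equal the reported ones by construction and are counted among the 87. The UBE2C interval held 0 in 4 of its 9 alternatives: total count, upper quartile and both FPKM settings. Among settings that could change its ratio, only DESeq2 scaling and the thinned library kept the UBE2C interval below 0. UBE2C ratios ran from -0.14 to -0.06, and the FBXO5 interval held 0 in all 9. The GMNN interval lay above 0 in all 9, with ratios of 0.18 to 0.27, and the intervals of the other 7 genes lay below 0 in all 9. The ESPL1 ratio lay between -0.71 and -0.60 and the CDCA3 ratio between -0.70 and -0.61, so both kept the 1.5-fold rule. The median of the 10 lay between -0.31 and -0.23.

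The 2-fold rule, which by construction can call no more genes than the 1.5-fold rule, gave 0 lower genes of the 10. It gave 184 lower and 221 higher of all compared genes. Counting any interval that excluded 0 gave 8 lower and 1 higher of the 10 and 3024 and 2430 of all. For all compared genes, FPKM with a pseudocount of 1 gave 308 lower and 440 higher, whole counts only gave 391 and 352, and a minimum of 100 reads gave 471 and 380, so the balance turned from more higher to more lower genes in the last 2 settings. No paired analysis was possible because each group has 1 library, and no library could be left out. Summing reads with retrocopies gave no value because, of the 10 copies and paralogues, the 1 listed was the paralogue CDC20B, with 0 and 1 reads. With 1 library per group, depth limits only the counting error, and the spread between cultures is unknown.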
